A study of Homo sapiens with 6 samples.

Results

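The genes described here are 10 genes of YAP and TAZ signalling, namely CCN1, CCN2, ANKRD1, AMOTL2, AJUBA, LATS2, AXL, F3, TEAD4 and YAP1, and they were taken by symbol from the 38041 genes of the expression table. Each of the 10 symbols matched 1 row. RNA sequencing compared HCT116 cells, a human colon cancer line, stably transfected with EPHX2 (overEXP group) with HCT116 cells transfected with an empty vector (NC group), with 3 libraries in each group. Both groups were grown in the same serum-containing medium. According to the methods, a lentiviral vector and puromycin selection were used. The libraries of a group are described as separate cell lines, which are not said to come from separate infections. One label of the NC libraries calls these cells untreated, whereas the titles and the methods give an empty vector. The p-values therefore reflect only how far these libraries differ among themselves, and part of that may be technical.

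YAP1 (YAP) and its paralog WWTR1 (TAZ) are coactivators that do not bind DNA themselves. In the nucleus they bind TEAD factors, of which TEAD4 is one, and switch on genes of growth, adhesion and matrix. The Hippo kinases, with LATS1 and LATS2 at the end of the cascade, phosphorylate YAP and TAZ and keep them in the cytoplasm. CCN1, CCN2 and ANKRD1 are the targets most often read as a measure of YAP and TAZ activity, and AMOTL2, LATS2 and AJUBA are targets that act back on the pathway. In colon epithelium YAP is known for its part in regeneration after injury and in tumor growth.

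The promoters of the members were searched for the letters that TEAD factors bind. Promoter sequences from RefSeq (GRCh38.p14) were found for 8 of the 10 members, without CCN1 and TEAD4, and 3 of the 8 had 2 annotated starts, which gave 11 windows. The 250 bases before each start were read for the TEAD core GGAATG, for the AP-1 motif TGANTCA and for the CArG box, which SRF binds, on both strands. The TEAD core was found in 6 of the 11 windows, and in 11.9% of all 35116 promoter windows of the same length. The windows of CCN2 and ANKRD1 are shown in full because they held the most matches, with 3 TEAD cores in CCN2 (95, 104 and 169 bases before the start) and 2 in ANKRD1 (128 and 220 bases before it). At least 3 cores were found in 0.0826% of all windows and at least 2 in 0.940%. Both sequences are written on the strand of the gene up to the base before the start, and capitals mark the TEAD cores and, in ANKRD1, an AP-1 motif 195 bases before the start.
CCN2, chr6:131951373-131951622, minus strand: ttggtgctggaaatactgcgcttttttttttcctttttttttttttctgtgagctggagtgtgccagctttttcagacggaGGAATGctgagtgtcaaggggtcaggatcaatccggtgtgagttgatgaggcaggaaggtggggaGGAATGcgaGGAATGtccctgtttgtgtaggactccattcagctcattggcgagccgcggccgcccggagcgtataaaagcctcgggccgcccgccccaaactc
ANKRD1, chr10:90921088-90921337, minus strand: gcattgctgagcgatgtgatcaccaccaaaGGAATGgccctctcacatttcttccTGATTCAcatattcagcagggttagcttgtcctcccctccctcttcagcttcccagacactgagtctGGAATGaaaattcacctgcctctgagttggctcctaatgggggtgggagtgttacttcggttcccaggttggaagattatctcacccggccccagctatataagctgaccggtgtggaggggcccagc

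YAP1 and the inner start of AXL held 1 TEAD core each, and F3 held no TEAD core but 2 AP-1 motifs. The stretches around these matches are shown for comparison with CCN2 and ANKRD1, with the matches in capitals. In AXL the core lies on the opposite strand and is read as CATTCC.
YAP1, chr11:102110260-102110315, plus strand: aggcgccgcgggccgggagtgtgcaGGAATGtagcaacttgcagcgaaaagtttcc
AXL, chr19:41226518-41226573, plus strand: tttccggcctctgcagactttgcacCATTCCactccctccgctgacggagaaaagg
F3, chr1:94541938-94542007, minus strand: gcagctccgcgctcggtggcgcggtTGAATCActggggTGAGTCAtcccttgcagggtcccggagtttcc

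The inner starts of AMOTL2 and AJUBA held 1 TEAD core each, 69 and 59 bases before the start. Both windows of AMOTL2 and the inner window of AJUBA overlap annotated exons of the same gene. The windows of YAP1 and F3 and the outer window of AJUBA overlap exons of other genes. LATS2 and the outer starts of AMOTL2, AJUBA and AXL held none. AP-1 motifs were found in 2 of the 11 windows, and in 6.57% of all windows. The CArG box was in none of the 11 windows, and in 1.16% of all. A match is a description of the letters only, and distal sites were not searched.

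**Figure D1:**
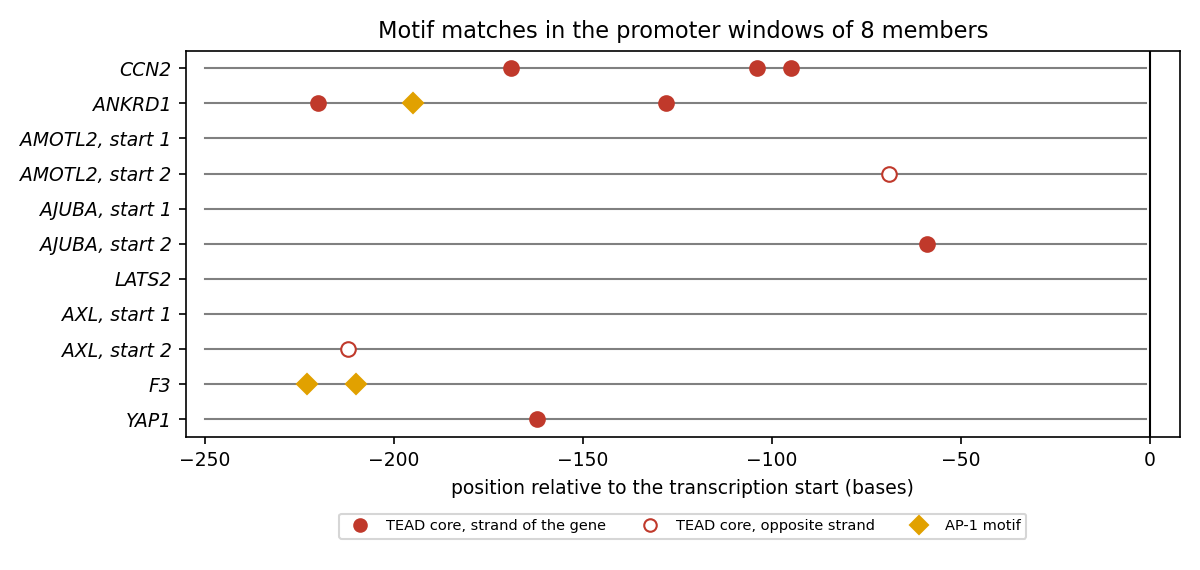
Positions of TEAD cores (circles, filled on the strand of the gene and open on the opposite strand) and AP-1 motifs (diamonds) in the 250 bases before each annotated start of 8 members, in bases relative to the start. CCN2 holds 3 TEAD cores and ANKRD1 holds 2, whereas LATS2 and the outer starts of AMOTL2, AJUBA and AXL hold none.

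EPHX2, the gene transfected, had an FPKM (fragments per kilobase of transcript, scaled to the mapped reads of the library) of 157, 162 and 181 in overEXP libraries 1 to 3, against 1.53, 1.96 and 1.50 in NC libraries 1 to 3. The summed FPKM was 288471 to 321825 in overEXP and 277441 to 282322 in NC. Mitochondrially encoded RNA took 34.9% to 39.9% of it in overEXP and 29.6% to 34.6% in NC. The 5 epithelial markers (EPCAM, CDH1, KRT8, KRT18 and KRT19) were at an FPKM of 1 or more in all 6 libraries. Of 7 intestinal markers (CDX1, CDX2, VIL1, CDH17, LGALS4, CEACAM5 and CEACAM6), only CDX2 reached 1 in 5 of the libraries, whereas all 7 did so in overEXP library 2, where their summed FPKM was 265 (2.86 and 3.63 in the other overEXP libraries, 2.99 to 3.33 in NC). In that library 129 genes had an FPKM of 1 or more while under 0.1 in every other library, against 0 to 7 such genes in each other library. Of 8 fibroblast markers, 4 were at 1 or more in overEXP library 2 and only COL1A1 in the others, and the summed FPKM of the 8 was 13.3 in overEXP library 2 and 2.37 to 3.82 in the others. None of 4 endothelial markers reached 1 in any library, and of 3 leukocyte markers only CD68 did so. The fibroblast marker LUM and the T cell marker CD3E were listed at 0 in all libraries but overEXP library 2. There LUM was at 1.37 and CD3E at 0.0835, which is far under an FPKM of 1. Whether mitochondrial RNA or the transcripts of overEXP library 2 play a part in the results was not tested, and values without overEXP library 2 are therefore given beside the results.

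Compared with the NC group, all 10 members were lower in each of the 3 overEXP libraries than in any of the 3 NC libraries. All but ANKRD1 were above an FPKM of 1 in all 6 libraries and passed the filter on low values, and these 9 averaged 51.9% to 83.2% of their NC mean in overEXP. In bulk RNA, fewer cells that express a gene and less of its RNA per cell cannot be told apart. Of these 9, 5 fell (CCN1, AXL, CCN2, F3 and AMOTL2), none rose, and LATS2, YAP1, AJUBA and TEAD4 did not pass the test. The test was limma on log2(FPKM + 1) over the 12281 genes that reached an FPKM of 1 in 3 or more libraries, with Benjamini-Hochberg adjustment at 0.05. In it, 366 genes were lower in overEXP, or 2.98% of genes tested, and 154 were higher, or 1.25%. With values scaled by median of ratios these counts were 359 lower and 345 higher. Groups with every overEXP value under every NC value made up 21.7% of genes tested, against 9 of 9 members, and 61.6% had a negative log2 fold change. The median log2 fold change of the 9 members was -0.44 (range -0.89 to -0.23), and that of all genes tested was -0.05. The count of 5 was 1 (CCN1) without overEXP library 2 or without NC library 1, 2 or 3. It was 4 without overEXP library 1, 6 without overEXP library 3 and 0 with no filter on low values. The share of all genes tested that was lower also moved. It was 0.480% without overEXP library 2 and 0.537%, 0.228% and 0.171% without NC libraries 1 to 3. Without overEXP library 1 it was 1.77%, without overEXP library 3 3.12%, and with no filter 0.00526%.

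**Figure D2:**
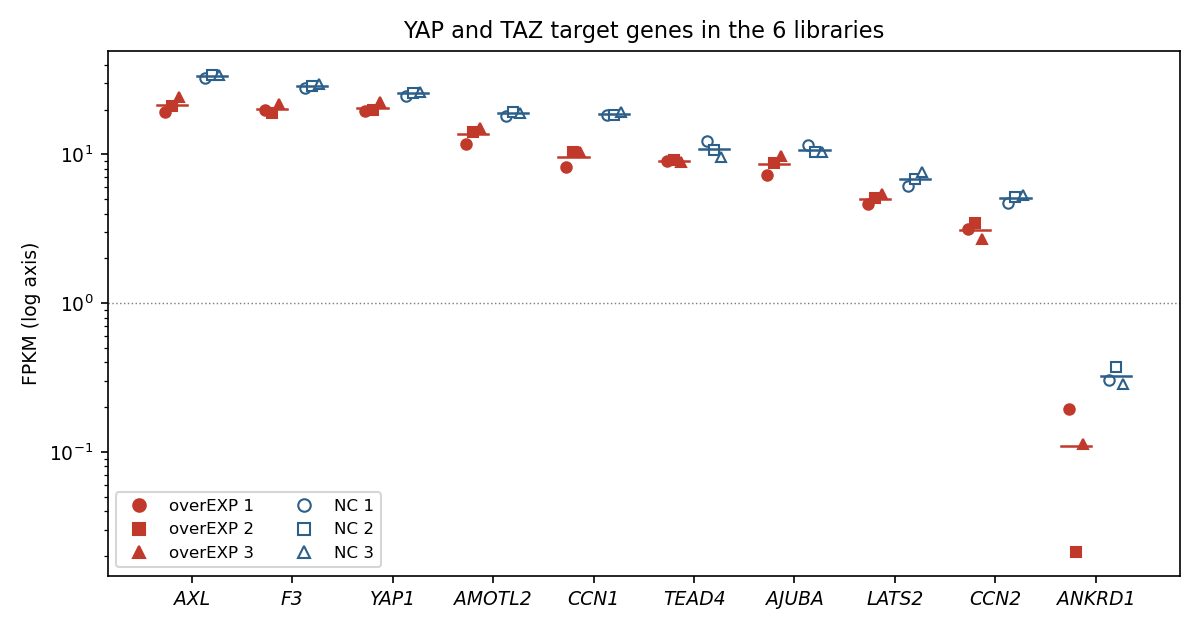
FPKM of the 10 members in each library, on a log axis, with overEXP (filled red) to the left of NC (open blue), marker shapes for libraries 1 to 3 and bars at the group means. All overEXP values lie under all NC values of the same gene, and ANKRD1 lies under an FPKM of 1 (dotted line) in all 6 libraries.

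CCN1 and CCN2 encode secreted matrix-associated proteins of one family that bind integrins. CCN1 (ENSG00000142871, chr1:85580761-85584589 of GRCh38, 5 exons) had an FPKM of 8.17, 10.4 and 10.3 in overEXP libraries 1 to 3, against 18.2, 18.2 and 19.2 in NC libraries 1 to 3. Library 1 was the lowest of the overEXP libraries, and the gap between the groups was wider than the spread within either. The mean was 9.64 ± 1.27 in overEXP and 18.6 ± 0.585 in NC (SD, n = 3 libraries each) (log2 fold change -0.89, standard error 0.10, limma adjusted p = 0.00826). CCN1 had the largest negative log2 fold change of the 9 members tested and passed the test without any single library (adjusted p from 0.00687 to 0.0491 from limma).

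CCN2 (ENSG00000118523, chr6:131948176-131951372, 5 exons), which promotes fibrosis and is also known as connective tissue growth factor, was read at 3.16, 3.44 and 2.69 in overEXP, against 4.72, 5.17 and 5.36 in NC (FPKM of libraries 1 to 3). The overEXP and NC values were again separate, at a lower level than for CCN1. CCN2 averaged 3.10 ± 0.377 in overEXP and 5.09 ± 0.331 in NC (SD, n = 3 each) (log2 fold change -0.57, standard error 0.09, limma adjusted p = 0.0252). The CCN2 log2 fold change did not pass without overEXP library 2 (-0.63, adjusted p = 0.0513) or without NC library 1, 2 or 3 (adjusted p = 0.0643, 0.116 and 0.121, all from limma). The ratio of CCN1 to CCN2 within a library, which does not depend on the scaling of libraries, was 2.58, 3.03 and 3.83 in overEXP and 3.86, 3.52 and 3.59 in NC. Between the groups the ratios overlapped (difference of log2 ratios -0.23, exact permutation test, two-sided, p = 0.3). With 3 libraries per group this test gives no p under 0.1. It therefore cannot settle whether the larger fold of CCN1 differs from that of CCN2.

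ANKRD1 (ENSG00000148677, chr10:90912096-90921087, 9 exons), an ankyrin repeat protein of the nucleus and the sarcomere, was the only member under the filter. Its FPKM was 0.195, 0.0213 and 0.112 in overEXP, against 0.307, 0.374 and 0.288 in NC. These levels are far under an FPKM of 1, and the lowest was in overEXP library 2. No overEXP library reached any NC library (two-sided exact permutation p = 0.1, the lowest value possible with 3 libraries per group). No fold change is given at this level, since the read counts behind such values are unknown.

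AXL and F3 encode proteins of the cell surface. AXL (ENSG00000167601, chr19:41219223-41261766, 20 exons), a receptor tyrosine kinase for the ligand GAS6 that is linked to invasion and drug resistance in tumors, was at 19.2, 21.0 and 24.3 in overEXP, against 32.8, 34.3 and 34.1 in NC (FPKM of libraries 1 to 3). AXL was the member with the highest NC level, and its overEXP values were more spread than its NC values. The mean was 21.5 ± 2.59 in overEXP and 33.7 ± 0.838 in NC (SD, n = 3 each) (log2 fold change -0.63, standard error 0.09, limma adjusted p = 0.0158). F3 (ENSG00000117525, chr1:94529173-94541759, 6 exons) is tissue factor, the receptor that starts blood coagulation. F3 was at 19.9, 18.9 and 21.8 in overEXP, against 27.9, 28.9 and 29.8 in NC. Its spread was small in both groups, with means of 20.2 ± 1.50 in overEXP and 28.8 ± 0.951 in NC (SD, n = 3 each) and a fold change of -0.49 on the log2 scale (standard error 0.07, limma adjusted p = 0.0178). Without overEXP library 2, the adjusted p from limma was 0.0607 for AXL (log2 fold change -0.62) and 0.0633 for F3 (-0.45). Without NC library 1, 2 or 3 it was 0.0513, 0.0841 and 0.0758 for AXL and 0.0513, 0.0927 and 0.0913 for F3.

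AMOTL2, LATS2 and AJUBA are both targets and regulators of YAP and TAZ. AMOTL2 (ENSG00000114019, chr3:134355347-134375479, 10 exons) is a junction scaffold of the angiomotin family that holds YAP outside the nucleus. Its FPKM was 11.8, 14.1 and 15.1 in overEXP, against 18.1, 19.4 and 19.0 in NC. overEXP library 1 was the lowest of the 6. AMOTL2 averaged 13.7 ± 1.72 in overEXP and 18.8 ± 0.682 in NC (SD, n = 3 each) (log2 fold change -0.44, standard error 0.10, limma adjusted p = 0.0480), the call closest to the threshold. The AMOTL2 log2 fold change passed without overEXP library 3 (adjusted p = 0.0469) and did not pass without overEXP library 1 or 2 (0.0517 and 0.107) or NC library 1, 2 or 3 (0.109, 0.169 and 0.161, adjusted p from limma). It also missed the threshold with quantile normalization (adjusted p = 0.0555), without the variance trend (0.0610) and with a pseudocount of 0.1. Within a library, AMOTL2 was 1.88, 2.14 and 1.91 times its paralog AMOTL1 in overEXP, against 2.53, 2.77 and 2.60 times in NC. These ratios did not overlap between the groups (difference of log2 ratios -0.41, exact permutation test, two-sided, p = 0.1, adjusted p = 0.3 over 6 pairs of genes compared in this way).

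LATS2 (ENSG00000150457, chr13:20973036-21061586, 8 exons), the kinase that phosphorylates YAP and TAZ, was at 4.67, 5.09 and 5.37 in overEXP, against 6.09, 6.78 and 7.55 in NC. The groups did not overlap, but the gap between the highest overEXP value and the lowest NC value was smaller than the range within NC. The means were 5.04 ± 0.353 in overEXP and 6.81 ± 0.732 in NC (SD, n = 3 each), and the log2 fold change of -0.37 (standard error 0.09) missed the threshold (adjusted p = 0.0714 from limma). Its paralog LATS1 was read at 2.82, 3.59 and 4.41 in overEXP and 4.27, 4.12 and 4.44 in NC, with overlap. AJUBA (ENSG00000129474, chr14:22971177-22982551, 8 exons), a LIM protein that binds LATS kinases and restrains them, was at 7.23, 8.73 and 9.76 in overEXP, against 11.5, 10.4 and 10.3 in NC. The overEXP libraries were the more spread, and the log2 fold change of -0.30 (95% interval -0.55 to -0.05) did not pass (adjusted p = 0.147 from limma). The ratios of LATS2 to LATS1 and of AJUBA to LIMD1, another LIM protein of its family, overlapped between the groups (exact permutation tests, two-sided, p = 0.3 and 0.7).

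YAP1 and TEAD4 belong to the transcription complex itself. YAP1 (ENSG00000137693, chr11:102110447-102233424, 9 exons) was at 19.6, 19.7 and 22.3 in overEXP, against 24.6, 25.9 and 26.4 in NC. The groups were separate, by less than for the targets CCN1 and AXL on the log2 scale. YAP1 averaged 20.6 ± 1.52 in overEXP and 25.6 ± 0.973 in NC (SD, n = 3 each), a log2 fold change of -0.31 (95% interval -0.48 to -0.14) that missed the threshold (adjusted p = 0.0624 from limma) but passed without overEXP library 3 (-0.36, adjusted p = 0.0432). WWTR1, which encodes TAZ, was at 7.80, 6.99 and 9.10 in overEXP and 8.56, 8.40 and 8.48 in NC, with overlap and a log2 fold change of -0.09 (95% interval -0.31 to 0.13). On the FPKM scale, which is per length, YAP1 was 2.52, 2.82 and 2.45 times WWTR1 in overEXP, against 2.87, 3.09 and 3.12 times in NC, without overlap (difference of log2 ratios -0.22, exact permutation test, two-sided, p = 0.1, adjusted p = 0.3).

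TEAD4 (ENSG00000197905, chr12:2959330-3040676, 13 exons) was at 9.05, 9.09 and 8.94 in overEXP, against 12.3, 10.6 and 9.60 in NC. Its overEXP values were nearly equal, and the NC values were widely spread. The log2 fold change of -0.23 (95% interval -0.45 to -0.02) was the smallest of the 9 and did not pass (adjusted p = 0.180 from limma). The other TEAD genes overlapped between the groups. TEAD1, the highest of the 4 paralogs, averaged 13.3 ± 1.80 in overEXP and 15.4 ± 1.14 in NC (SD, n = 3 each). TEAD2 averaged 6.22 ± 0.608 and TEAD3 7.98 ± 1.07 in overEXP, against 6.45 ± 0.941 and 8.10 ± 0.487 in NC, and none of TEAD1, TEAD2 and TEAD3 passed the test (log2 fold changes -0.20, -0.04 and -0.03, of which the signs of TEAD2 and TEAD3 turned with median-of-ratios scaling). The summed FPKM of the 4 TEAD genes was 33.6, 37.1 and 38.9 in overEXP, against 41.5, 41.5 and 39.4 in NC. The ratio of TEAD4 to TEAD1 overlapped between the groups (exact permutation test, two-sided, p = 0.9).

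**Figure D3:**
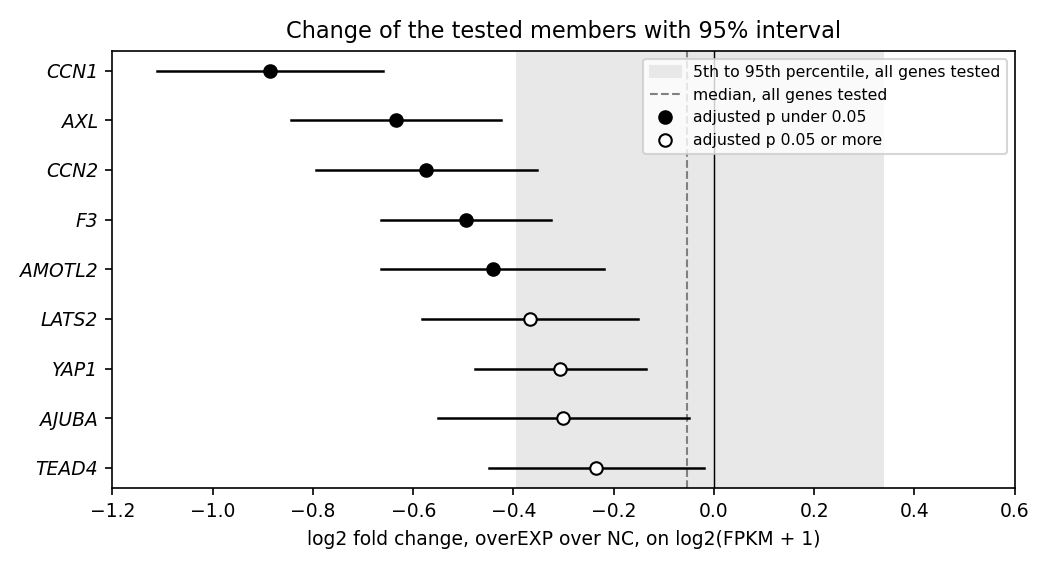
Log2 fold change of overEXP over NC on log2(FPKM + 1) for the 9 members tested, with 95% intervals from limma and filled points for an adjusted p under 0.05. The grey band holds the 5th to 95th percentile of all genes tested, and the 5 filled members (CCN1, AXL, CCN2, F3 and AMOTL2) lie below it.

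The order of the NC levels was AXL (33.7), F3 (28.8), YAP1 (25.6), AMOTL2 (18.8), CCN1 (18.6), TEAD4 (10.8), AJUBA (10.7), LATS2 (6.81), CCN2 (5.09) and ANKRD1 (0.323), in mean FPKM. AMOTL2 and CCN1, and TEAD4 and AJUBA, differed by less than their SD in NC. In overEXP the means were AXL 21.5, YAP1 20.6, F3 20.2, AMOTL2 13.7, CCN1 9.64, TEAD4 9.03, AJUBA 8.57, LATS2 5.04, CCN2 3.10 and ANKRD1 0.109. AXL, YAP1 and F3 differed there by less than the SD of AXL, and CCN1, TEAD4 and AJUBA by less than the SD of CCN1. Among the overEXP libraries, library 1 was the lowest for 6 of the 10 members and library 3 the highest for 6. The median deviation of the 9 tested members from their NC means was -0.51, -0.39 and -0.30 on the log2(FPKM + 1) scale in overEXP libraries 1 to 3, and that of all genes tested was -0.13, -0.05 and 0.01. In NC libraries 1 to 3 the members were at -0.05, 0.00 and 0.04.

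A list of 15 further targets of YAP and TAZ, written from textbook knowledge, was read in the same way. Like the other lists here, it was chosen with earlier results of these data known, so its counts are not independent support. One of the 15, FOXF2, had no row, and 4 others (IGFBP3, CCDC80, TGFB2 and RBMS3) were under the filter. Of the 10 tested, 2 fell and none rose, beside 2.98% lower and 1.25% higher over all genes tested, and the median log2 fold change was -0.30 (-0.05 over all genes tested). CRIM1, a membrane protein that binds bone morphogenetic proteins, was at 9.90, 10.8 and 11.3 in overEXP, against 14.6, 15.2 and 15.5 in NC (log2 fold change -0.46, standard error 0.07, limma adjusted p = 0.0209). NT5E, the surface enzyme that makes adenosine from AMP, was at 43.2, 41.9 and 47.3 in overEXP, against 59.9, 57.1 and 56.5 in NC (log2 fold change -0.38, standard error 0.07, limma adjusted p = 0.0335). Both genes kept the groups apart in every library. CRIM1 did not pass without overEXP library 2 (adjusted p = 0.0699) or NC library 1, 2 or 3 (0.0591, 0.105 and 0.107), and NT5E lost its call whichever library was left out except overEXP library 3 (adjusted p from 0.0599 to 0.128, all from limma).

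Other targets did not pass the test. NUAK2, a kinase that feeds back on YAP, was at 1.07, 2.26 and 1.67 in overEXP, against 3.11, 3.40 and 3.02 in NC, with the largest negative log2 fold change of these targets (-0.67, adjusted p = 0.0619 from limma). PTPN14, a phosphatase that binds YAP, was at 2.73, 2.89 and 3.84 in overEXP, against 4.46, 4.81 and 4.71 in NC (-0.46, adjusted p = 0.0656). The groups did not overlap for 6 of the 10 targets tested, all with overEXP below NC, against 21.7% of all genes tested. MYOF and GADD45A overlapped, with log2 fold changes of 0.00 and -0.06.

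Of 30 components and regulators of the Hippo pathway other than the members, 24 were tested, 3 fell and none rose, with a median log2 fold change of -0.11. Over all genes tested, 2.98% were lower and 1.25% higher, with a median of -0.05. The 3 were NF2, the scaffold merlin that brings LATS kinases to the membrane, WWC1 (KIBRA), a partner of merlin, and TAOK2, of a kinase family whose members activate the Hippo kinases. NF2 was at 14.4, 14.9 and 17.1 in overEXP, against 19.9, 21.8 and 23.4 in NC (log2 fold change -0.47, adjusted p = 0.0379 from limma). WWC1 was at 10.5, 11.0 and 12.9 in overEXP, against 15.6, 15.4 and 16.2 in NC (log2 fold change -0.43, adjusted p = 0.0389). TAOK2 was at 7.37, 7.26 and 8.55 in overEXP, against 11.2, 10.1 and 10.5 in NC (log2 fold change -0.41, adjusted p = 0.0393). None of the 3 passed without overEXP library 1 or 2 or any NC library (adjusted p from 0.0643 to 0.149 from limma). Without the variance trend none of the 3 passed (adjusted p from 0.0515 to 0.0538), and NF2 did not pass with quantile normalization (0.0586). The groups did not overlap for 7 of the 24 components tested, all with overEXP below NC, against 21.7% of all genes tested. The Hippo kinases STK3 and STK4 and the adaptor MOB1A overlapped between the groups, with log2 fold changes of 0.05, 0.08 and 0.01. SAV1 was at 13.1, 11.9 and 12.8 in overEXP, against 15.5, 14.5 and 14.1 in NC, without overlap but not past the test (log2 fold change -0.21, adjusted p = 0.128 from limma). Of the paralogs of members, AMOT averaged 0.951 in overEXP and 0.955 in NC and WTIP 0.790 in overEXP and 0.966 in NC, both under the filter. LIMD1 was at 4.28, 4.14 and 5.07 in overEXP, against 5.11, 5.27 and 5.76 in NC, without overlap but not past the test (log2 fold change -0.22, adjusted p = 0.205).

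Several YAP targets, among them CCN1 and CCN2, are also targets of SRF and its actin-regulated partner MRTF. Of 15 SRF targets, 13 were tested, 2 fell and 2 rose, with a median log2 fold change of -0.12, beside 2.98% lower, 1.25% higher and a median of -0.05 over all genes tested. Zyxin (ZYX), a protein of focal adhesions, was at 27.3, 27.1 and 26.3 in overEXP, against 39.4, 38.2 and 40.0 in NC (log2 fold change -0.53, adjusted p = 0.00826 from limma). CNN2, a calponin that binds actin, was at 37.4, 39.1 and 37.4 in overEXP, against 56.0, 52.2 and 53.8 in NC (log2 fold change -0.50, adjusted p = 0.0108). By contrast, TAGLN (transgelin), another calponin-like protein, was at 3.53, 3.67 and 3.24 in overEXP, against 1.40, 1.26 and 1.37 in NC (log2 fold change 0.94, adjusted p = 0.00720), and FHL1, a LIM protein of muscle, was at 3.51, 3.01 and 3.38 in overEXP, against 2.37, 2.21 and 2.07 in NC (log2 fold change 0.42, adjusted p = 0.0421, all from limma). SRF itself did not pass (log2 fold change -0.23, adjusted p = 0.152). TAGLN passed without any single library, FHL1 lost its call whichever library was left out (adjusted p from 0.0648 to 0.171) and after rescaling to TPM (0.108), and ZYX and CNN2 did not pass without NC library 2 (0.0521 and 0.0666) or NC library 3 (0.0592 and 0.0683, adjusted p from limma).

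**Figure D4:**
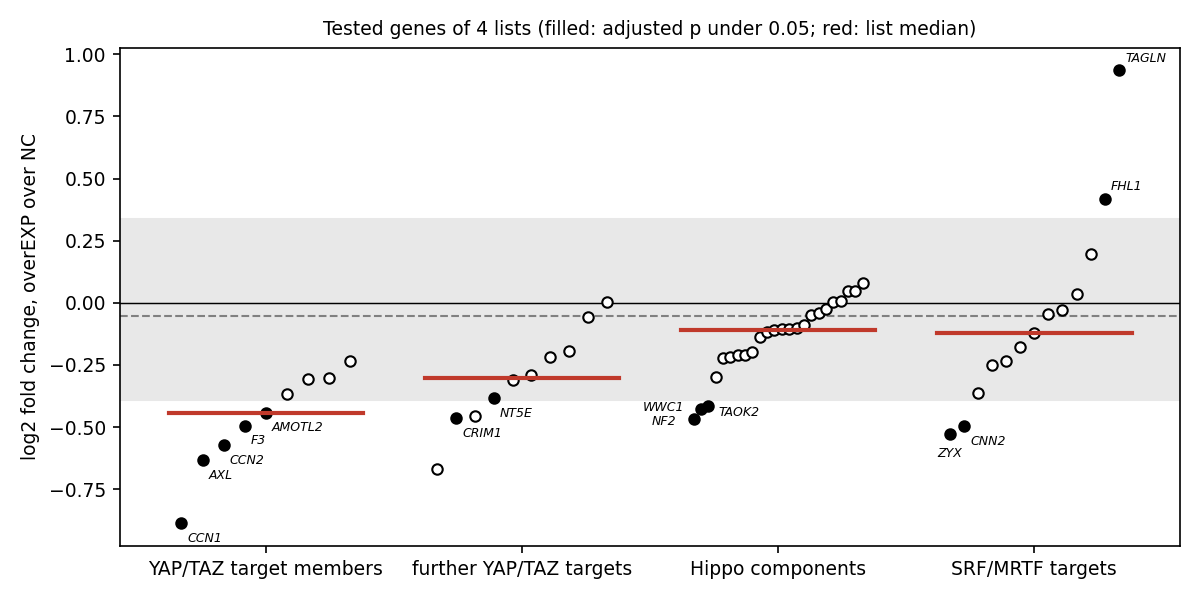
Log2 fold change of overEXP over NC for each tested gene of 4 lists, with filled points for an adjusted p under 0.05, a red bar at the median of each list, a dashed line at the median of all genes tested and a grey band from their 5th to 95th percentile. The medians are -0.44 for the members, -0.30 for further targets, -0.11 for Hippo components and -0.12 for SRF targets.

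The members were also read under other scalings and without overEXP library 2. After median-of-ratios scaling, which set the median log2 fold change of all genes to 0.00, the 9 members had log2 fold changes from -0.82 to -0.17 and 5 were lower, against 2.92% of genes tested. After rescaling to TPM, which moved the median of all genes to -0.20, 7 of 9 members were lower, against 6.94% of genes tested, and the median of the members was -0.60. Genes of higher GC content had lower log2 fold changes, with a median of -0.02 in the lowest of 5 equal bins of transcript GC content and -0.13 in the highest. With each library corrected for transcript length and GC content, 7 of 9 members were lower (CCN1, AXL, CCN2, F3, AMOTL2, LATS2 and YAP1), against 5.37% of genes tested, with log2 fold changes from -0.83 to -0.27 for these 7. That correction was chosen after the data were seen. Without overEXP library 2, which held the intestinal markers, 4 of the 5 calls were lost and CCN1 alone passed (log2 fold change -0.94, adjusted p = 0.0245 from limma), against 0.480% of genes tested, and the 9 members had log2 fold changes from -0.94 to -0.24. The same 4 calls were also lost without NC library 1, 2 or 3, where 0.537%, 0.228% and 0.171% of genes tested were lower. By comparison, 4 members were lower without overEXP library 1 and 6 without overEXP library 3, against 1.77% and 3.12% of genes tested. Whether the transcripts of overEXP library 2 play a part was not tested.

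**Figure D5:**
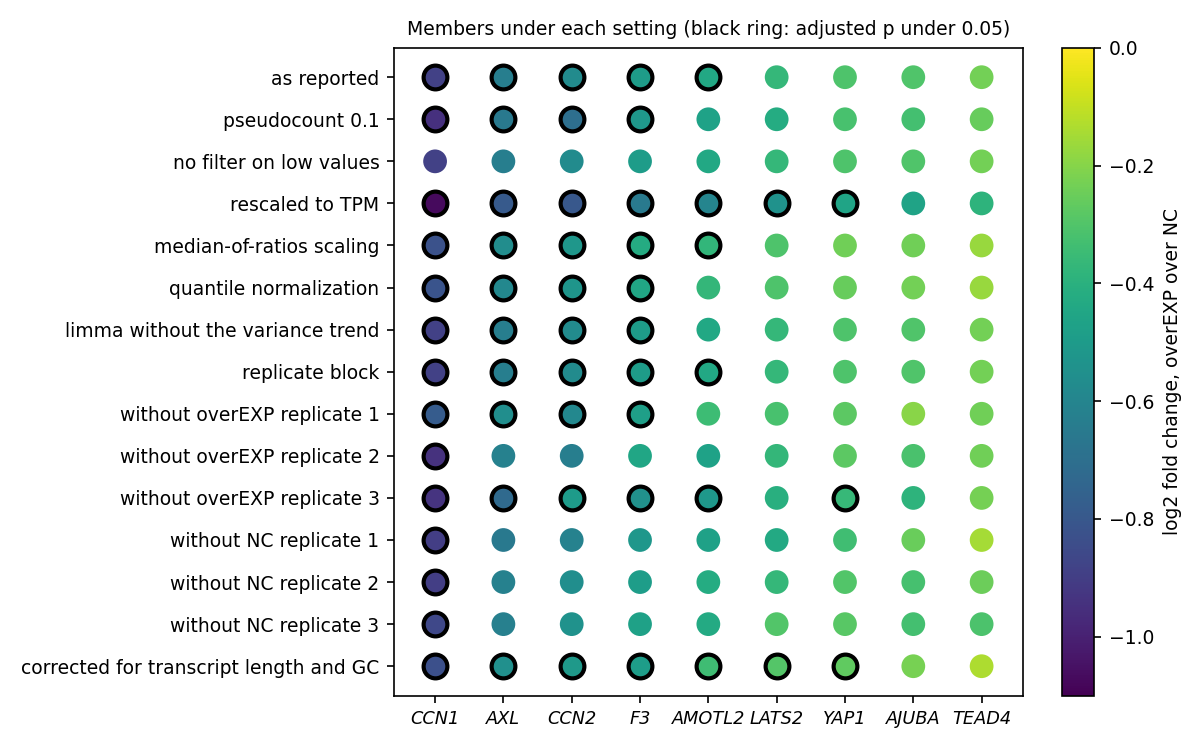
Log2 fold change of overEXP over NC (colour) for the 9 members tested under each setting, with a black ring for an adjusted p under 0.05. All values are negative, CCN1 passes under every setting but that with no filter on low values, and AJUBA and TEAD4 pass under none.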

How the data were processed

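RNA of HCT116 cells was sequenced in 3 overEXP and 3 NC libraries. According to the methods, the authors filtered reads with FastQC, mapped them to GRCh38 (HISAT2, version 2.0.4 according to the submitters' processing notes), assembled them with StringTie and merged the assemblies with gffcompare. The deposited values are gene-level FPKM from StringTie, 1 column per library. Read counts were not used here and strand use is not given in the sources used here, so the depth is unknown and precision rests on the spread between 3 libraries. The table also holds the authors' own fold changes and tests, which were not used.

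The 12281 genes that reached an FPKM of 1 in 3 or more libraries were compared on log2(FPKM + 1), a scale that understates changes of low genes, with limma 3.58.1 in R 4.3.3, a variance trend and p-values that were two-sided and adjusted by Benjamini-Hochberg over all of them. The test was also run on simulated data with independent noise for each gene and library. Those data held no shift of a whole library and no dependence on GC content, so the run does not cover such effects. Single values were compared with exact permutation tests (scipy 1.17.1). Coordinates are those of the whole genes in GENCODE v44 (37906 of 38041 IDs matched). Exons, lengths and GC content come from its canonical transcripts, and promoters from RefSeq. All 10 members were named, with EPHX2, the genes of each other list past the threshold and paralogs of members. NUAK2, PTPN14, MYOF, GADD45A, STK3, STK4, MOB1A, SAV1, SRF and single markers were chosen after their values were seen. The members and lists were chosen with earlier results of these data known. Alternatives were another pseudocount, no filter, 3 other scalings, no variance trend, a replicate block, each library left out and a length and GC correction.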

Additional observations from a re-analysis of the deposited data

How the results depend on the processing

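The log2 fold changes of the 9 members tested were negative under all 14 alternatives. The number of members lower, 5 as reported, was 4 with a pseudocount of 0.1, with quantile normalization and without the variance trend (AMOTL2 lost), 5 with median-of-ratios scaling, 7 after rescaling to TPM and after the length and GC correction, and 0 with no filter on low values, where the adjustment ran over 38041 genes and 2 were lower and 3 higher (at an unadjusted p under 0.05 from limma, 10 of 10 members and 3846 of all 38041 genes). With one library left out it was 1 to 6. Over all genes, the counts lower and higher (366 and 154) were 852 and 94 after rescaling to TPM, 359 and 345 with median-of-ratios scaling, 395 and 330 with quantile normalization, 658 and 528 after the length and GC correction, and, with one library left out, 21 (without NC library 3) to 383 (without overEXP library 3) lower and 23 (without NC library 3) to 199 (without overEXP library 1) higher.

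For further targets, the number lower was 4 after rescaling to TPM, quantile normalization or the length and GC correction. In these settings 6.94%, 3.22% and 5.37% of all genes tested were lower. The number was 0 with no filter (0.00526% of all genes), and 0 to 3 with one library left out (0.171% to 3.12%). The Hippo components numbered 0 lower with no filter or without the variance trend (2.13% of all genes tested), and 0 to 4 with one library left out. For the SRF targets, 0 were lower and 0 higher with no filter, and 1 was higher after rescaling to TPM. After the length and GC correction 3 were lower and 3 higher, beside 5.37% and 4.31% of genes tested. With one library left out 0 to 2 were lower and 1 higher each time. The paralogs AMOTL1, TEAD2 and TEAD3, which passed under no setting, changed sign. Their log2 fold changes were 0.013, 0.019 and 0.037 with median-of-ratios scaling, 0.0083, 0.013 and 0.030 with quantile normalization, 0.026, 0.057 and 0.093 after the length and GC correction, and -0.14 to 0.012, -0.13 to 0.049 and -0.12 to 0.053 with one library left out. Apart from the cases whose construction shows it, the cause was not tested.

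Libraries with the same number were not treated as paired in the main fit, since the methods name no pairing. Deviations from the group means correlated by 0.36, -0.02 and 0.37 for numbers 1 to 3. The values for numbers 1 and 3 were the highest of all pairs of an overEXP and an NC library, whereas overEXP library 2 correlated best with NC library 3 (0.20). These values do not settle whether the libraries were paired. With the replicate number as a block, 213 genes were lower and 118 higher, 5 members were lower, 1 further target, 2 Hippo components and 2 SRF targets were lower and 1 SRF target higher, and EPHX2 had a log2 fold change of 5.98. The depth behind low values such as those of ANKRD1 is unknown.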
